A study of Mus musculus with 10 samples.

Results

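Pax6, Sp8, Emx1, Emx2, Nr2f1, Nr2f2, Dmrta1, Dmrta2 and Dmrt3 encode the transcription factors that give the embryonic cortex its map of areas, and their transcripts were measured in sorted cells of the dorsal mouse brain. They were chosen by gene name, as 9 of the 53801 genes in the deposited table, and all 9 passed the expression filter that left 16187 genes for testing. The study compared 2 sorted populations of wild-type embryos, GFAP+ and NG2+, with 5 libraries each. Both had received StarTrack reporter plasmids by in utero electroporation at embryonic day 12 and were sorted at embryonic day 14, and all libraries belong to batch 1. The labels call the cells of both groups neural stem cells. Whether the sort read an antibody or the reporter, which promoters drove the plasmids, and whether a library came from 1 embryo or from pooled embryos is not given in the sources used here. Every p-value therefore measure the spread between these libraries, which may be in part technical.

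In the embryonic pallium these factors are expressed in gradients across the sheet of progenitors that lines the ventricle. Pax6 and Sp8 are higher toward the rostral end, Emx2, Nr2f1 and Nr2f2 are higher toward the caudal end, and Emx2 and the Dmrt genes are higher toward the medial edge, where the hippocampus and the cortical hem form. Signals from patterning centres at the margins, with Fgf8 in front and Wnt and Bmp ligands at the hem, set the gradients, and the factors sharpen one another's boundaries, as with the mutual repression of Pax6 and Emx2.

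Library totals ranged from 12945436 to 17569730 counts. NG2 replicate 5 had reads for 18903 genes, against 22988 to 24444 in the other 9 libraries. GFAP replicate 2 had a summed level of radial glia markers of 2037 CPM (counts scaled to a common library size after TMM normalisation), against 1475 to 1570 CPM in the other GFAP libraries. These 2 libraries stood apart, and the values without them are given below. Cspg4, which encodes NG2, had 513 reads in the NG2 and 80 in the GFAP group, and Gfap had 6 and 10, so Gfap itself was near 0 in both groups. All 10 radial glia markers (such as Sox2, Nes and Hes5) were found, and all 7 neuronal markers that were matched by name summed to 3935 to 6804 CPM in a library. In such bulk libraries, fewer cells of a type and less RNA per cell cannot be told apart.

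The members spanned a wide range of expression. On the scale of deposited FPKM (reads scaled by gene length and library size), the nuclear receptor Nr2f1 had the highest level at 26.7 ± 5.14, followed by the homeobox genes Emx1 at 14.8 ± 2.22, Pax6 at 10.2 ± 2.57 and Emx2 at 7.02 ± 1.63 (mean ± SD, n = 10 libraries). Dmrt3 had 4.92 ± 2.47, Dmrta1 2.78 ± 1.43, Dmrta2 1.601 ± 0.436, Nr2f2 1.36 ± 0.596 and the zinc finger gene Sp8 0.486 ± 0.165 FPKM. Every pair of neighbours in this order overlapped in its range over the 10 libraries. Within a library, Nr2f1 stood above Emx1, and Pax6 above Emx2, in 10 of 10 libraries. Dmrta2 stood above Nr2f2 in 7 of 10, so their order is the least certain of the 8 steps. The other 5 steps held in 9 of 10 libraries.

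Read counts differed widely between the genes, and the spread between libraries did not follow them alone. Pax6 had 1099 to 2867 reads in a library and Nr2f1 1171 to 2804, while Sp8 had 21 to 58 and Dmrta2 44 to 106. The coefficient of variation between libraries of a group of Nr2f2 reached 42.0% among GFAP and 44.4% among NG2 libraries, against 8.08% and 20.3% for Emx1. Dmrta1 had 52.8% among GFAP and 20.1% among NG2 libraries, and Dmrta2 had 12.7% and 31.3%. The median over all tested genes was 15.6% among GFAP and 20.2% among NG2 libraries. Sequence shared with other genes was rare. Nr2f1 and Nr2f2, which are close paralogs, shared 10 words of 50 bases in the same orientation in the GENCODE M21 transcripts, out of 5090 and 8582 in all, and Emx1, Emx2, Sp8, Dmrta2 and Dmrt3 shared none in that orientation with any other gene.

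The labels set NG2+ against GFAP+ cells, and for these genes the comparison asks whether the levels of factors that mark position in the pallium differ between the 2 sorts. By edgeR's quasi-likelihood test with Benjamini-Hochberg adjustment over all 16187 genes, 0 of the 9 members passed an adjusted p of 0.05 in either direction, where 0.148% of all tested genes did (0.0741% higher and 0.0741% lower). At an unadjusted p under 0.05, 5 members were lower in NG2 and 0 were higher, against 6.33% and 6.45% of all tested genes. Those 5 were Dmrt3, Pax6, Emx2, Dmrta1 and Dmrta2. The median log2 fold change (NG2 minus GFAP) was -0.53 over the members and -0.01 over all tested genes. The median of the members was -0.35 without GFAP replicate 2, -0.28 without GFAP replicate 2 and NG2 replicate 5, and -0.24 by voom. The count of calls depended on the tool, and each of the following fits is 1 of 20 alternatives to the edgeR result. DESeq2 called 3 members lower (Pax6, Emx2 and Dmrt3), where it called 1.03% of its genes lower. The authors' deposited table, whose tool is not named in the sources used here, also has Pax6, Emx2 and Dmrt3 among the 0.452% of its genes that are lower at that threshold. It rests on the same libraries. Its log2 fold changes of Pax6 (-0.5166), Emx2 (-0.5196) and Dmrt3 (-1.165) equal those of the DESeq2 fit. The deposited table is therefore not a second line of evidence beside DESeq2. Its share rests on 129 of 28533 genes, against 134 of 13006 by DESeq2. Voom with sample weights called Dmrta2 and Dmrt3 lower, where it called 5.29% of genes lower, and edgeR with no filter called Dmrt3, where it called 0.119%. Limma-trend on FPKM called 0 members (0.0185% of genes lower), as did edgeR with the replicate number in the fit (0%). EdgeR without GFAP replicate 2 and NG2 replicate 5 also called 0 members, where it called 0.945% of genes lower.

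**Figure D1:**
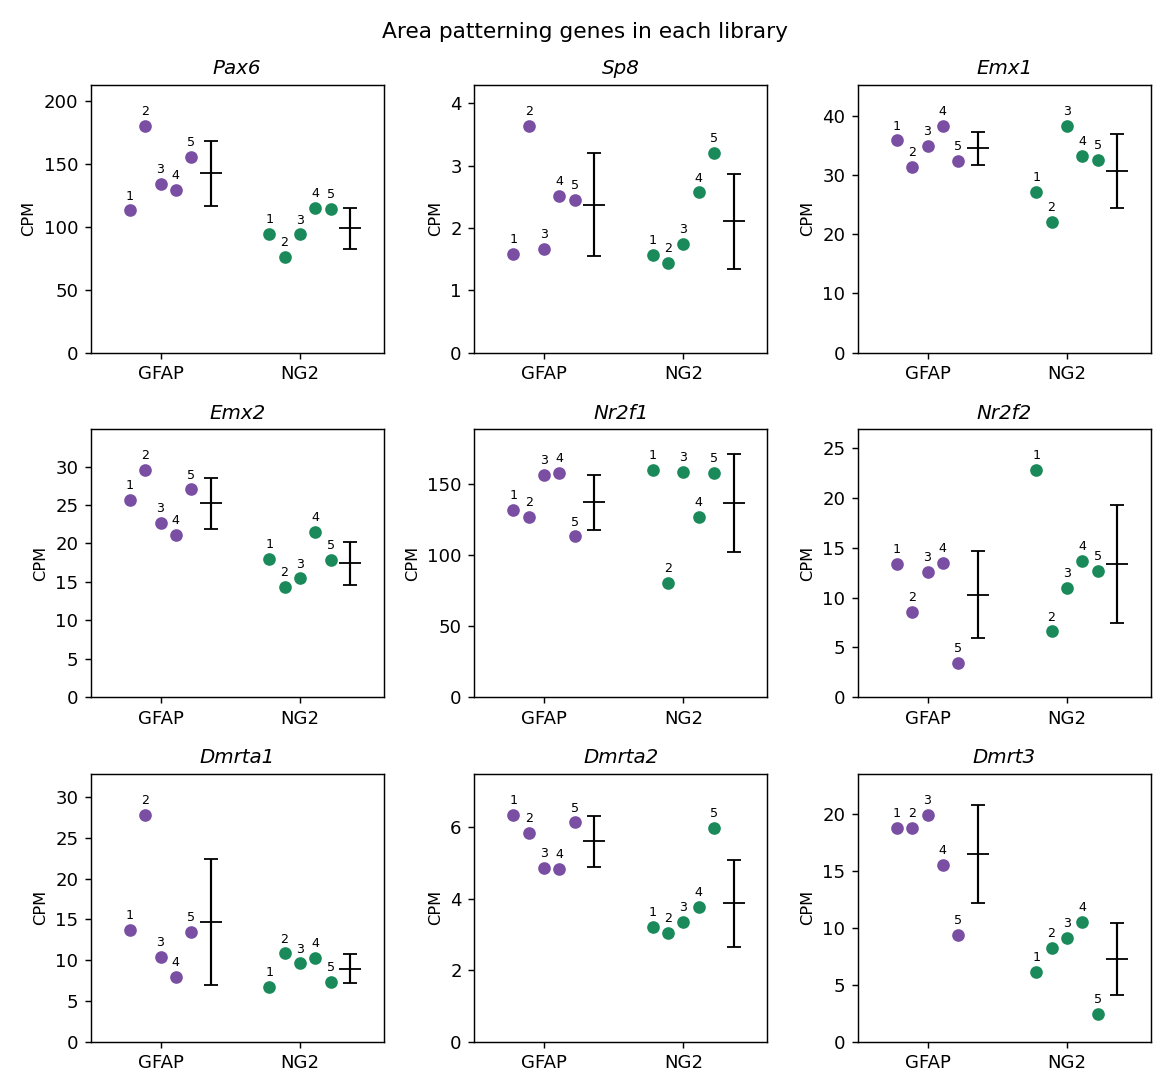
CPM of each of the 9 genes (vertical axes, linear from 0) in the 5 GFAP and 5 NG2 libraries, with replicate numbers beside the points and the mean and SD of each group as a bar to the right of its points. In Pax6, Emx2 and Dmrt3, 4 of 5 GFAP libraries lie above the highest NG2 library, and no gene separates the groups completely.

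Pax6 encodes a paired-box and homeodomain factor of radial glia, the progenitors that line the ventricle, and is needed for rostral area identity. It lies at chr2:105668900-105697364 on the plus strand (ENSMUSG00000027168, GRCm38). It stood at 113, 180.0, 134, 129 and 155 CPM in GFAP replicates 1 to 5, and at 94.4, 75.7, 93.8, 115 and 114 CPM in NG2 replicates 1 to 5. GFAP replicate 1 lay below NG2 replicates 4 and 5, and the other 4 GFAP libraries lay above all NG2 libraries. The log2 fold change was -0.53 (SE 0.14, edgeR, Benjamini-Hochberg adjusted p = 0.155), with a 95% interval of -0.83 to -0.23. In the authors' deposited table Pax6 has a log2 fold change of -0.52 and an adjusted p of 0.0295.

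Sp8, a zinc finger factor of the rostral and medial pallium that also marks some ventral progenitors, lies at chr12:118846329-118852576 on the plus strand (ENSMUSG00000048562). It had 1.59, 3.64, 1.67, 2.52 and 2.45 CPM in the GFAP and 1.57, 1.45, 1.74, 2.57 and 3.21 CPM in the NG2 libraries. The groups overlapped over most of their range. The log2 fold change was -0.17 (SE 0.35, edgeR adjusted p = 0.883). Its interval of -0.92 to 0.58 contains both 0 and the estimate of Pax6, so a difference of that size can be neither shown nor excluded. Without GFAP replicate 2 the estimate was 0.04.

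Emx2 and Emx1 are homeobox genes of the dorsal telencephalon, and Emx2 is needed for caudal and medial area identity. Emx2 lies at chr19:59458372-59465357 on the plus strand (ENSMUSG00000043969). It stood at 25.7, 29.5, 22.7, 21.1 and 27.0 CPM in the GFAP and at 18.0, 14.3, 15.4, 21.5 and 17.8 CPM in the NG2 libraries. NG2 replicate 4 lay just above GFAP replicate 4, and the other NG2 libraries lay below all GFAP libraries. The log2 fold change was -0.53 (SE 0.14, 95% interval -0.84 to -0.22, edgeR Benjamini-Hochberg adjusted p = 0.165). The authors' deposited table gives Emx2 a log2 fold change of -0.52 and an adjusted p of 0.0324. Emx1, at chr6:85187438-85204462 on the plus strand (ENSMUSG00000033726), had 31.3 to 38.3 CPM in the GFAP and 22.04 to 38.2 CPM in the NG2 libraries. Its log2 fold change was -0.17 (SE 0.14, 95% interval -0.47 to 0.13, edgeR adjusted p = 0.653). Per length, Emx1 exceeded Emx2 in all 10 libraries, by 1.46 to 2.50 times in GFAP and by 2.07 to 3.41 times in NG2 libraries, and these ranges overlapped.

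Nr2f1 and Nr2f2 encode the nuclear receptors COUP-TFI and COUP-TFII, which promote caudal and lateral identity. Nr2f2 is also expressed in interneurons, in venous endothelium and in mesenchyme. Nr2f1 lies at chr13:78188973-78199757 on the minus strand (ENSMUSG00000069171). It had 132, 127, 157, 158 and 113 CPM in the GFAP and 160.0, 80.6, 159, 127 and 158 CPM in the NG2 libraries. NG2 replicate 2 was the lowest of the 10, and the group means of 137.5 and 136.9 CPM were nearly equal. Its log2 fold change was -0.01 (SE 0.17, 95% interval -0.36 to 0.35, edgeR adjusted p = 0.993), and its sign changed in 6 of the 20 other fits. Nr2f2, at chr7:70351944-70366735 on the minus strand (ENSMUSG00000030551), had 13.4, 8.54, 12.6, 13.5 and 3.47 CPM in the GFAP and 22.8, 6.61, 10.99, 13.7 and 12.7 CPM in the NG2 libraries. GFAP replicate 5 was the lowest and NG2 replicate 1 the highest. The log2 fold change was 0.37 (SE 0.35, 95% interval -0.37 to 1.11, edgeR adjusted p = 0.694), and the estimate was 0.10 without NG2 replicate 1 and 0.16 without GFAP replicate 5. Endothelial and mural markers summed to 7.97 to 33.4 CPM in the GFAP and 8.23 to 31.9 CPM in the NG2 libraries. The sum was 7.97 CPM in GFAP replicate 5 and 19.2 CPM in NG2 replicate 1. It was 8.23 CPM in NG2 replicate 5, at 12.7 CPM of Nr2f2, and 33.4 CPM in GFAP replicate 1, at 13.4 CPM of Nr2f2. The part of these cells in the Nr2f2 values was not tested. Per length, Nr2f1 stood 11.9 to 55.3 times above Nr2f2 over the 10 libraries.

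The 3 Dmrt genes encode factors with a DM domain, a zinc-binding domain shared with the sex determination factors doublesex and Dmrt1. Dmrta2 and Dmrt3 act in parallel in medial cortical progenitors. Dmrt3 had the largest difference of the 9 genes and lies at chr19:25610537-25623920 on the plus strand (ENSMUSG00000042372). It stood at 18.8, 18.8, 19.96, 15.5 and 9.40 CPM in GFAP replicates 1 to 5 and at 6.14, 8.26, 9.11, 10.5 and 2.42 CPM in NG2 replicates 1 to 5. GFAP replicate 5 lay below NG2 replicate 4, and the other GFAP libraries lay above all NG2 libraries. The group means of 16.5 and 7.30 CPM differed 2.26-fold, with a log2 fold change of -1.18 (SE 0.31, 95% interval -1.85 to -0.51, edgeR Benjamini-Hochberg adjusted p = 0.157). The authors' deposited table gives -1.17 and an adjusted p of 0.0128. Without GFAP replicate 2 and NG2 replicate 5, which stood apart, the estimate was -0.90 (edgeR adjusted p = 0.0529), and in no fit was it above -0.76.

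Dmrta2, at chr4:109978053-109983687 on the plus strand (ENSMUSG00000047143), had 6.34, 5.84, 4.86, 4.83 and 6.13 CPM in the GFAP and 3.21, 3.03, 3.34, 3.76 and 5.97 CPM in the NG2 libraries. NG2 replicate 5 lay within the GFAP range and the other 4 NG2 libraries lay below it. Its log2 fold change was -0.53 (SE 0.24, 95% interval -1.05 to -0.01, edgeR adjusted p = 0.381), and -0.74 (adjusted p = 0.0980) without NG2 replicate 5. Dmrta1, at chr4:89679436-89694772 on the plus strand (ENSMUSG00000043753), had 13.7, 27.8, 10.4, 7.91 and 13.4 CPM in the GFAP and 6.75, 10.8, 9.60, 10.2 and 7.33 CPM in the NG2 libraries. GFAP replicate 2 lay above all other libraries. GFAP replicates 1 and 5 also lay above all NG2 libraries, and GFAP replicates 3 and 4 lay within the NG2 range. The log2 fold change of Dmrta1 was -0.71 (SE 0.29, 95% interval -1.33 to -0.10, edgeR adjusted p = 0.320), and it was -0.34 without GFAP replicate 2 (adjusted p = 0.493). In NG2 replicate 5 Dmrta2 was the highest and Dmrt3 the lowest of the NG2 libraries, so that Dmrta2 stood 2.02 times above Dmrt3 per length there, against 0.199 to 0.533 times in the other 9 libraries.

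**Figure D2:**
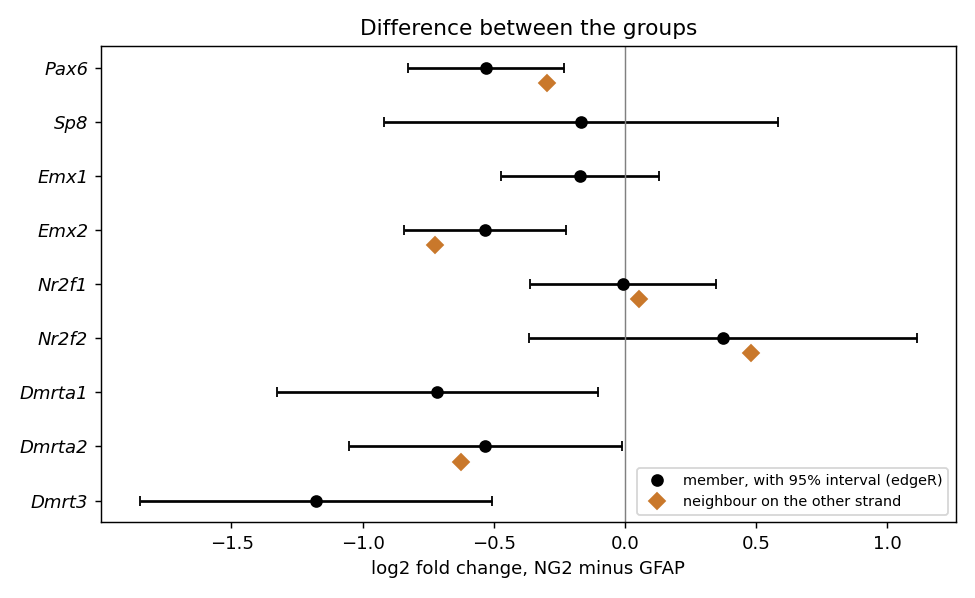
Log2 fold change (NG2 minus GFAP, horizontal axis) of each gene with its 95% interval from edgeR as a black point and bar, and the estimate of its neighbour on the other strand as an orange diamond. The intervals of Pax6, Emx2, Dmrta1, Dmrta2 and Dmrt3 lie below 0, and the neighbours of Pax6, Emx2, Nr2f1, Nr2f2 and Dmrta2 have estimates that lie within the intervals of the genes beside them.

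The start regions of Pax6, Emx2, Dmrta2 and Dmrt3 are shown because these genes had estimates below 0 whose intervals excluded 0 and a RefSeq start within 318 bases of the deposited gene start. Each window runs from 250 bases before to 50 after the start, on the plus strand of GRCm38.p6 as given by RefSeq. Capitals mark matches on either strand to 5 short motifs, the GC box GGGCGG, the box of letters CCAAT, the TATA box TATAAA, the homeodomain core TAATTA and the nuclear receptor half-site AGGTCA, with overlapping matches counted separately.
Pax6, chr2:105668646-105668945: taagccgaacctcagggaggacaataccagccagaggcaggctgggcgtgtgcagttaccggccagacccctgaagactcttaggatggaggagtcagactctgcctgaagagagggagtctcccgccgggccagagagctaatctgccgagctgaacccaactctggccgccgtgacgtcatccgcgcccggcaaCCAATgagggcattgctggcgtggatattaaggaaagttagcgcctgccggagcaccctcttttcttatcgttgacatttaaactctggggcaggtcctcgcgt
Emx2, chr19:59458440-59458739: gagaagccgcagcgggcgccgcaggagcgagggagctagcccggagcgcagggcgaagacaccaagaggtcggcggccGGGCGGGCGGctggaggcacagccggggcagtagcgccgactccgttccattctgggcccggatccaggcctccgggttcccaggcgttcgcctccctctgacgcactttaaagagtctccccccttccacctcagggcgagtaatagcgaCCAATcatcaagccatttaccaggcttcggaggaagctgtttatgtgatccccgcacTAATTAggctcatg
Dmrta2, chr4:109977775-109978074: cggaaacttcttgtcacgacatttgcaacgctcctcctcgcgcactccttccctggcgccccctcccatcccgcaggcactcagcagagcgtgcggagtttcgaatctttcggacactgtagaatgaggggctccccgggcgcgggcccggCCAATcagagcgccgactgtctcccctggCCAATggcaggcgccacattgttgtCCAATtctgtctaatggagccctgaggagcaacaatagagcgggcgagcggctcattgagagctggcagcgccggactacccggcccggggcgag
Dmrt3, chr19:25610287-25610586: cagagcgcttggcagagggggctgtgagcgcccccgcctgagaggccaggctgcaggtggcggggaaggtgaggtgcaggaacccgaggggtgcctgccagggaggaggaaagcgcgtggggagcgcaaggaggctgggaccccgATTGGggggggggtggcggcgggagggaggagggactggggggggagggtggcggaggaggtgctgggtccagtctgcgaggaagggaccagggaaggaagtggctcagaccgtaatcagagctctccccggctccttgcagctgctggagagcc
All 4 windows hold CCAAT or its complement, which is also true of the windows of Nr2f2 and Sp8, or 6 of the 9 members, and of 37.4% of the 32817 windows in the table. Dmrta2 holds it 3 times. TAATTA was found in Emx2 alone of the 9, and in 5.30% of all windows. GGGCGG was found in 4 of the 9 (Emx1, Emx2, Nr2f1 and Dmrta1) and in 35.6% of all windows, TATAAA in Sp8 and in 13.6%, and AGGTCA in none of the 9 and in 16.3%. The G and C content was 58.7% for Pax6, 64.3% for Emx2, 63.7% for Dmrta2 and 70.7% for Dmrt3, with a median of 52.7% over all windows. These matches describe the letters in the windows and do not show binding.

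Of the 9 genes, 5 had a neighbour on the other strand. Pax6os1, Emx2os, A830082K12Rik and B130024G19Rik overlap Pax6, Emx2, Nr2f1 and Nr2f2, and Dmrta2os starts beside Dmrta2 without overlapping it. Emx2os had 10.4, 10.5, 7.29, 8.96 and 7.22 CPM in the GFAP and 6.21, 5.37, 6.05, 6.33 and 2.99 CPM in the NG2 libraries. All NG2 libraries lay below all GFAP libraries, a separation also seen in 3.28% of tested genes (1.76% with NG2 lower). Its log2 fold change was -0.72 (SE 0.23, edgeR adjusted p = 0.239). Dmrta2os stood at 4.32 ± 0.449 CPM in GFAP and 2.80 ± 0.796 CPM in NG2 libraries (SD, n = 5 each), with a log2 fold change of -0.62 (SE 0.26, edgeR adjusted p = 0.339). A830082K12Rik, beside Nr2f1, had 37.8 ± 3.32 and 39.2 ± 6.73 CPM (log2 fold change 0.05, SE 0.13). Pax6os1 (-0.30, SE 0.34) and B130024G19Rik (0.48, SE 0.64) had few reads. How the counting treated strand is not given in the sources used here. Reads where Emx2, Nr2f1, Nr2f2 or Pax6 overlap these transcripts cannot be assigned with certainty. In GENCODE M21, 7.18% of the 50-base words of Emx2 were shared with a gene on the other strand, all with Emx2os. For Nr2f2, 7.35% were shared with any gene on either strand, mostly with B130024G19Rik.

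Correlations between the members varied widely in sign and size, with a median r of 0.2 over the 36 pairs. After each group's mean was taken out of log2 CPM, Pax6 and Sp8 had the highest correlation of the 36 pairs over the 10 libraries (Pearson r = 0.877, exact permutation p within groups = 0.00382, Benjamini-Hochberg adjusted p over the pairs = 0.138). Spearman's rho was 0.842 (exact permutation p = 0.00549, adjusted p = 0.0988), and r was 0.819 without GFAP replicate 2 and NG2 replicate 2, the libraries farthest from the median of Pax6. Emx1 and Nr2f1 came next with r = 0.747 (exact permutation p = 0.0501, adjusted p = 0.377) and rho = 0.442 (exact permutation p = 0.279, adjusted p = 0.931), but their r was 0.256 without NG2 replicates 2 and 3, so it rests on those libraries. Pax6 and Emx2 had r = 0.745 (exact permutation p = 0.0236, adjusted p = 0.283) and rho = 0.867 (exact permutation p = 0.00389, adjusted p = 0.0988), and r = 0.566 without GFAP replicate 2 and NG2 replicate 2. Nr2f1 and Nr2f2 had r = 0.711 (exact permutation p = 0.0163, adjusted p = 0.283) and rho = 0.600 (exact permutation p = 0.0680, adjusted p = 0.490). Their r was 0.250 without GFAP replicate 5 and NG2 replicate 2, so that relation rests on those libraries. The lowest r was -0.73, for Dmrta2 and Dmrt3 (exact permutation p = 0.103, adjusted p = 0.530), and it was -0.354 without GFAP replicate 1 and NG2 replicate 5. No pair passed after adjustment over the 36 pairs, and r was positive in 25 of them. NG2 replicate 2 was the lowest NG2 library for 7 of the 9 genes and had the lowest summed radial glia markers, at 957 CPM. GFAP replicate 2 was the highest GFAP library for Pax6, Emx2, Sp8 and Dmrta1.

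**Figure D3:**
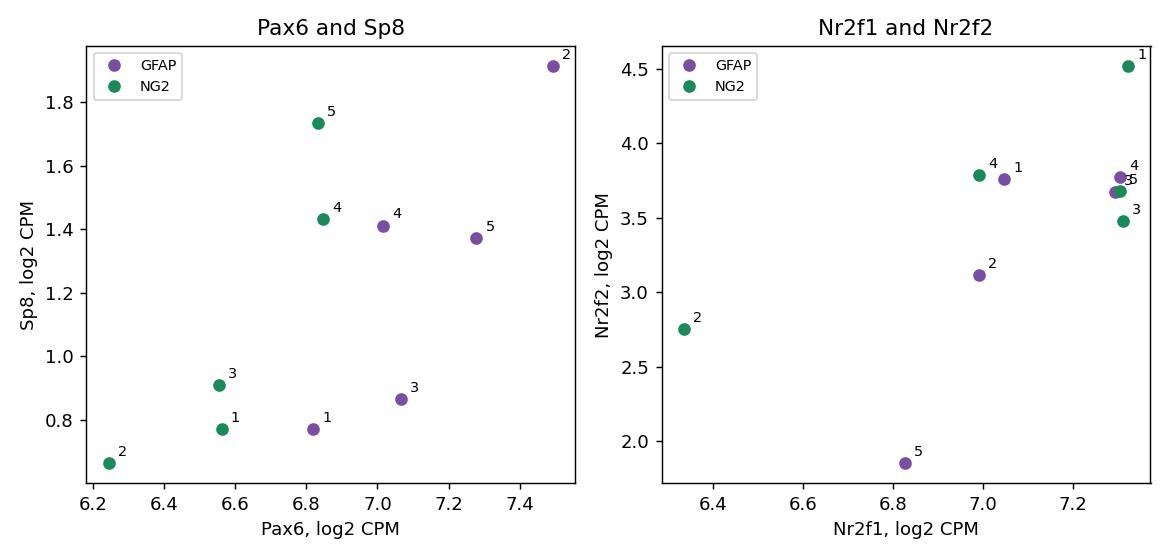
Log2 CPM of Sp8 against Pax6 (left) and of Nr2f2 against Nr2f1 (right) in the 10 libraries, with GFAP in purple, NG2 in green and replicate numbers beside the points. Libraries with more Pax6 tended to have more Sp8 in both groups, and NG2 replicate 2 and GFAP replicate 5 lie apart at low Nr2f1.

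Markers of progenitors, neurons and other cells differed in level between the groups by varying amounts. EdgeR called 1 of 4 tested oligodendrocyte precursor markers, a list that holds Cspg4, higher in NG2, where it called 0.0741% of all tested genes higher. In the lists whose values follow, 0 genes passed by edgeR. Radial glia markers summed to 1475 to 2037 CPM in GFAP and 957 to 1740 CPM in NG2 libraries, with 9 of 10 tested markers having a negative log2 fold change (median -0.25). Intermediate progenitor markers summed to 2007 to 2412 CPM in GFAP and 1698 to 1959 CPM in NG2 libraries, without overlap, and 6 of 7 were negative (median -0.23). Cortical neuron markers summed to 3935 to 5169 CPM in GFAP and 4876 to 6804 CPM in NG2 libraries, and 7 of 7 were positive (median 0.31). On average, the NG2 libraries thus had less summed progenitor and more summed neuronal marker RNA. For radial glia markers the libraries were mixed. NG2 replicates 1, 4 and 5 had 1740, 1543 and 1643 CPM, within the GFAP range. NG2 replicates 2 and 3 had 957 and 1258 CPM, and the highest GFAP sum was that of GFAP replicate 2. The part of these markers in the lower values of Pax6, Emx2 and the Dmrt genes was not tested. Microglia markers were also positive in 7 of 7 (median 0.95), with sums of 30.2 to 116 CPM in GFAP and 17.59 to 235 CPM in NG2 libraries. Set against the summed radial glia markers within a library, Dmrt3 had a mean log2 difference (NG2 minus GFAP) of -1.08. Dmrta1 stood at -0.39, Dmrta2 at -0.36, Emx2 at -0.33 and Pax6 at -0.32. Nr2f2 stood at 0.63, Nr2f1 at 0.17, Sp8 at 0.04 and Emx1 at 0.02, and the groups overlapped in all 9. Cajal-Retzius cells and the cortical hem adjoin the medial cortex. Their markers summed to 26.0 to 63.8 CPM in GFAP and 12.6 to 40.6 CPM in NG2 libraries. Of these markers, 6 of 7 tested were negative (median -0.97), and 4 of 10 were under 1 CPM. The 5 choroid plexus markers summed to 275, 11.3, 55.2, 140 and 0.272 CPM in GFAP replicates 1 to 5 and to 42.2, 8.26, 5.29, 1.13 and 0.0564 CPM in NG2 replicates 1 to 5. The lowest library of each group on this list, replicate 5 in both, was also the lowest of its group for Dmrt3. The other libraries did not follow that order, since NG2 replicate 4 had the highest Dmrt3 of its group at a sum of 1.13 CPM, NG2 replicate 1 had 6.14 CPM of Dmrt3 at the highest NG2 sum, and GFAP replicates 1 and 2 had 18.8 CPM each at sums of 275 and 11.3 CPM. Markers of ventral progenitors and interneurons, where Sp8 and Nr2f2 are also expressed, summed to 121 to 225 and 70.4 to 228 CPM. Meningeal fibroblast markers summed to 10.7 to 23.8 CPM in GFAP and 4.78 to 20.7 CPM in NG2 libraries. Of the tested ones, 6 of 7 were negative (median -0.73). The part of these cells in the values of Dmrt3, Emx2 and the other members was not tested.

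**Figure D4:**
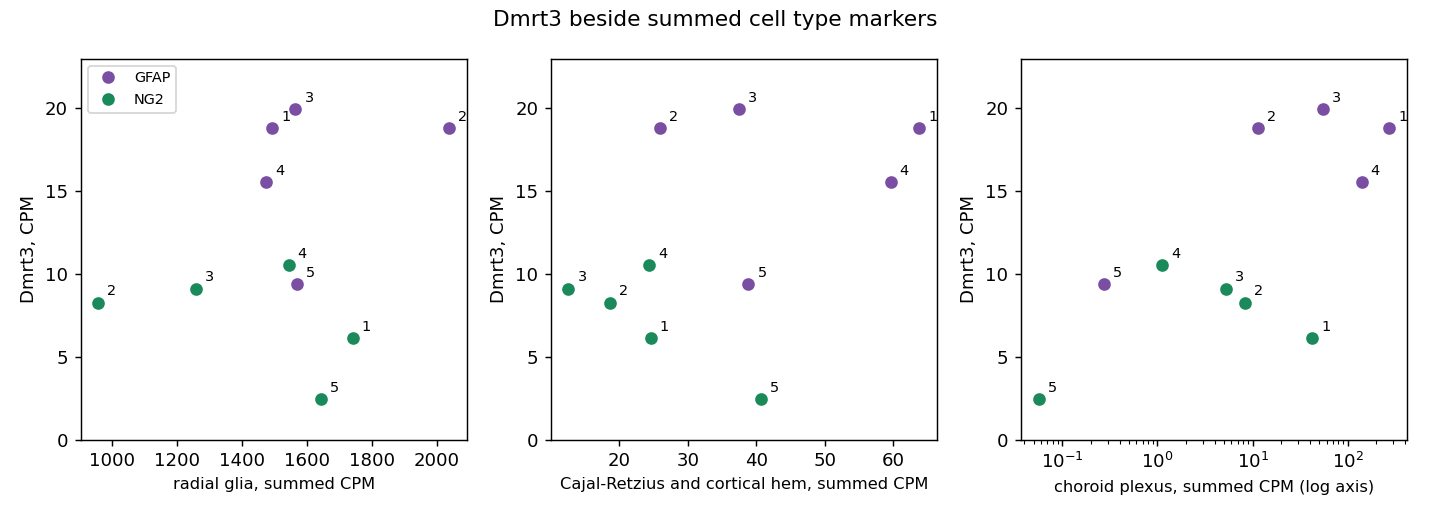
CPM of Dmrt3 (vertical axes) against the summed CPM of radial glia, of Cajal-Retzius and hem, and of choroid plexus markers (horizontal axes, the last one logarithmic) in GFAP (purple) and NG2 (green) libraries, with replicate numbers. At radial glia sums of 1543 to 1740 CPM, 3 NG2 libraries have 2.42 to 10.5 CPM of Dmrt3, and replicate 5 of each group has the lowest choroid plexus sum and the lowest Dmrt3 of its group, while NG2 replicates 1 (42.2 and 6.14 CPM) and 4 (1.13 and 10.5 CPM) run the other way.

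Genes that act with these factors were counted by list, and 0 members of any list passed by edgeR. Of 13 tested signals of the patterning centres, 9 had a negative and 4 a positive log2 fold change, with a median of -0.25, and 1 in each direction had an unadjusted p under 0.05. Wnt7b, a ligand made by cortical neurons, stood at 266 ± 54.3 CPM in GFAP and 394 ± 88.0 CPM in NG2 libraries (log2 fold change 0.57, SE 0.16, edgeR adjusted p = 0.189), and the secreted Wnt inhibitor Sfrp1 at 242 ± 57.5 and 206 ± 29.0 CPM. Of 19 receptors and feedback genes 10 were negative (median -0.04, 4 lower and 2 higher at an unadjusted p under 0.05). The receptor Fgfr3, which is graded toward the caudal cortex, was at -0.31 on the log2 fold scale (SE 0.16), and the Fgf target Etv5 at 0.01 (SE 0.24). Of 17 other progenitor patterning factors, 12 were negative, with a median of -0.24, and 6 were lower and 0 higher at an unadjusted p under 0.05. Lhx2, which selects cortical over hem fate, stood at 437 ± 23.9 CPM in GFAP and 345 ± 10.5 CPM in NG2 libraries (log2 fold change -0.34, SE 0.08, edgeR adjusted p = 0.122). The groups did not overlap for Lhx2, as for 3.28% of all tested genes (1.76% with NG2 lower). Of 23 area readout genes of neurons, 12 were positive and 11 negative (median 0.01), with 4 higher and 1 lower at an unadjusted p under 0.05. Of the 2 with the highest FPKM, Id2 was at 0.51 (SE 0.16) and Nfib at -0.19 (SE 0.12). Of 14 boundary and ventral factors, 9 were negative (median -0.07), 0 were higher and 1 was lower at an unadjusted p under 0.05, and Dlx2 was at 0.07 (SE 0.30). Over the 20 other fits the median of the other progenitor factors ranged from -0.32 to -0.15. The other medians changed sign, with ranges of -0.33 to 0.03 for the signals, -0.17 to 0.03 for the receptors and feedback genes, -0.20 to 0.05 for the readout genes and -0.22 to 0.13 for the boundary and ventral factors. The median of the signals was -0.07 without GFAP replicate 2 and 0.03 by voom. By DESeq2, which called 2.66% of all genes, 1 signal, 1 receptor or feedback gene and 2 progenitor factors were called.

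**Figure D5:**
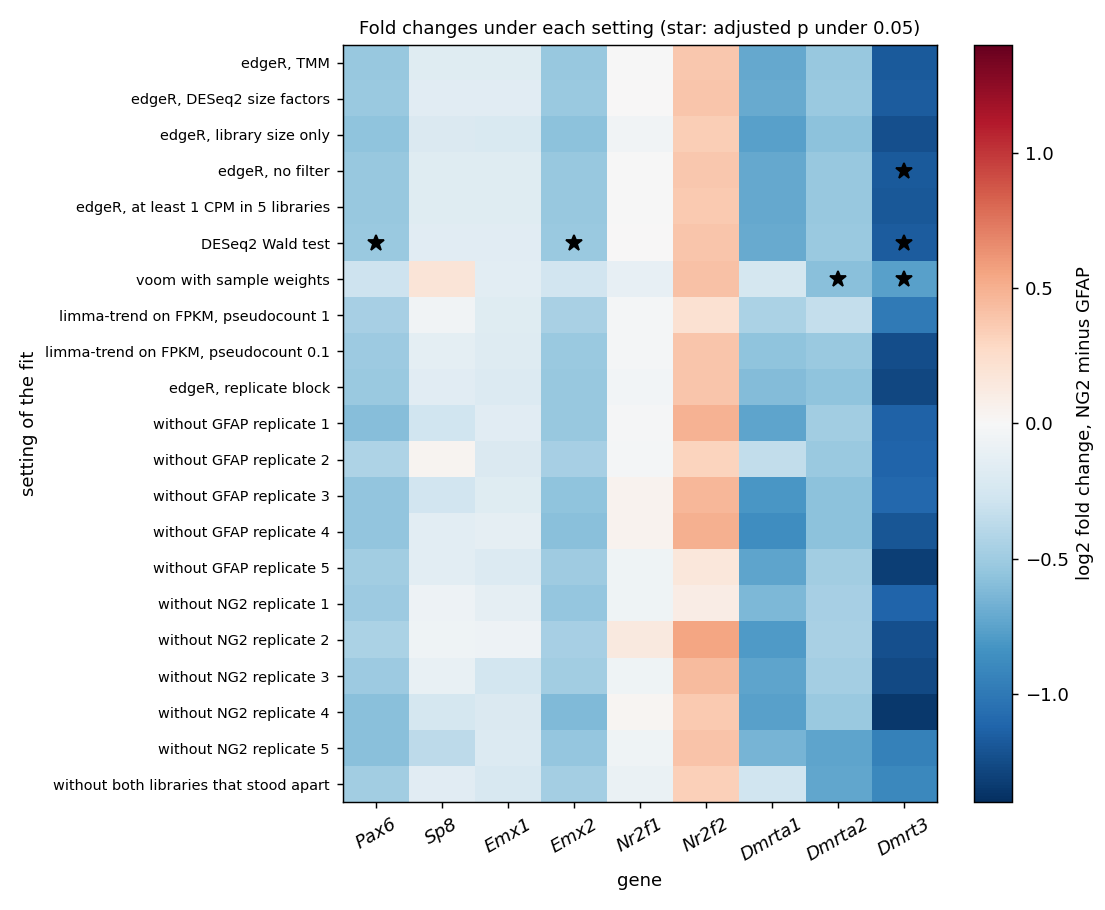
Log2 fold change (NG2 minus GFAP, colour scale) of the 9 genes (columns) under each setting of the fit (rows), with a star where the adjusted p was under 0.05. Dmrt3, Pax6, Emx2, Dmrta1, Dmrta2 and Emx1 are below 0 in all 21 rows, Nr2f2 is above 0 in all, and stars appear in the rows of DESeq2, of voom and of edgeR with no filter.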

How the data were processed

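Bulk RNA sequencing libraries of 5 NG2+ and 5 GFAP+ populations were compared. Per the submitters' processing notes, reads were aligned with HISAT2 to GRCm38.p6 and counted with featureCounts 1.5.0-p3. The deposited counts are whole read counts per gene without normalisation, and the deposited FPKM are scaled by gene length and library. The authors' comparison gives a mean signal, a log2 fold change and a p-value with its adjusted value, and its tool is not named in the sources used here. Per the labels' protocols, RNA was amplified with SMARTer chemistry, with no mention of molecular identifiers, and reads from amplified RNA are not independent molecules.

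Counts were tested with edgeR 4.0.16 (quasi-likelihood, R 4.3.3) on group alone, with TMM scaling, edgeR's expression filter and Benjamini-Hochberg adjustment over all tested genes (threshold 0.05). The fit was tested on simulated data. The 20 alternatives were DESeq2 1.42.0, limma 3.58.1 (voom with sample weights, and limma-trend on FPKM with pseudocounts of 1 and 0.1), other scalings and filters, the replicate number as a block, and leaving out each library. Leaving out GFAP replicate 2 and NG2 replicate 5 together was chosen after seeing the data. Log2 CPM used a prior count of 2. Start regions came from RefSeq (GRCm38.p6), where all 9 genes matched by symbol, and the one nearest the deposited gene start was used. The members and lists were chosen with earlier results of these data known. The pairs of genes in the ratios, the correlations between members, the levels relative to radial glia markers, the 5 motifs and the start regions shown were all chosen after the members' values had been seen. Named were all members, their neighbours on the other strand, and from each list the genes past the threshold or else the 2 with the highest FPKM, of which some are not reported here. One neuronal marker was not matched by name and is not analysed here.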

Additional observations from a re-analysis of the deposited data

Results flagged for a closer look

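In 3 of 34 groups of 5 libraries (9 genes and 8 ratios of gene pairs, in each population) 1 library lay farther from the rest than the 95% critical value of Dixon's gap test, which chance exceeds in about 1 in 20 groups. All 3 were ratios within a library, and none was the CPM of a single gene. In NG2 replicate 5 the log2 ratio of Dmrta2 to Dmrt3 (deposited FPKM) was 1.01, against -1.77 to -1.23 in the other NG2 libraries, and that of Dmrta1 to Dmrt3 was 0.785, against -0.855 to -0.424. Dmrt3 had 43 reads and Dmrta2 106 reads in that library, which also had the fewest detected genes. In GFAP replicate 1 the log2 ratio of Pax6 to Emx2 was 0.174, against 0.559 to 0.656 in the other GFAP libraries.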

How the results depend on the processing

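Over the 20 other fits, the log2 fold changes of Pax6 (-0.60 to -0.29), Emx1 (-0.26 to -0.07), Emx2 (-0.62 to -0.26), Dmrta1 (-0.87 to -0.24), Dmrta2 (-0.74 to -0.33), Dmrt3 (-1.35 to -0.76) and Nr2f2 (0.10 to 0.55) kept their sign. Nr2f1 turned positive with DESeq2 size factors (0.00495), by DESeq2 (0.00676) and without GFAP replicate 3 (0.05), GFAP replicate 4 (0.05), NG2 replicate 2 (0.14) or NG2 replicate 4 (0.02), with a lowest value of -0.0648 with 1 library left out (NG2 replicate 1). Sp8 turned positive by voom (0.18) and without GFAP replicate 2 (0.0416), with a lowest value of -0.369 with 1 library left out (NG2 replicate 5). The number of members called lower was 0 by edgeR, 1 with no filter (Dmrt3, adjusted p = 0.0487), 3 by DESeq2 and 2 by voom, and 0 in all 10 fits with 1 library left out, where the lowest adjusted p was 0.0551 (Dmrt3 without NG2 replicate 5). The cause of these differences was not tested. Over all genes, edgeR called 12 higher and 12 lower, against 58 and 37 with no filter, 212 and 134 by DESeq2, 584 and 857 by voom, 9 and 3 by limma-trend with either pseudocount, 3 to 70 higher and 0 to 47 lower with 1 library left out, and 109 and 154 without GFAP replicate 2 and NG2 replicate 5. The highest counts with 1 library left out came without NG2 replicate 5, and without GFAP 1, GFAP 2, GFAP 3 or NG2 2 they were 3 and 0. The lists, in the order given in the report, had 13, 19, 17, 23 and 14 genes tested by edgeR, which called 0. DESeq2 called 1, 1, 2, 0 and 0 of their genes, against 2.66% of all genes in either direction. Voom called 4, 5, 4, 5 and 1, against 8.9% of all genes. The fit without the 2 libraries that stood apart called 2, 0, 1, 1 and 0, against 1.61%. The replicate numbers are shared by the groups, but same-numbered libraries correlated at only -0.02 to 0.08 in their deviations from the group means, and 1 of 5 numbers matched best with itself. With the replicate block edgeR called 1 gene higher and 0 lower and 0 members. The order of the genes by FPKM and the group differences in the pair ratios were also recomputed from TMM CPM per kilobase and with each library left out. The order stayed the same. Each ratio difference moved by less than the SD between libraries of a group. That SD includes the library left out, so it cannot tell whether a difference rests on 1 library. Without NG2 replicate 5, the difference for Dmrta2 to Dmrt3 fell from 0.72 to 0.19 and that for Dmrta1 to Dmrt3 from 0.69 to 0.40. Without GFAP replicate 5, that for Nr2f1 to Nr2f2 went from -0.46 to -0.17. Library scaling cancels in a ratio within a library, so TMM CPM per kilobase could not change the ratios. The difference for Pax6 to Emx2, 0.01 over all libraries, changed sign in some fits. It was -0.08 without GFAP replicate 1, -0.02 without NG2 replicate 3 and -0.04 without NG2 replicate 5. Low counts, with 21 to 58 reads of Sp8 and 44 to 106 of Dmrta2 in a library, limit the precision of these genes.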

Other observations

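Other genes of the patterning lists, chosen after their values were seen, had an unadjusted p under 0.05 in either direction without passing by edgeR. Otx1, a homeobox gene of cortical progenitors, stood at 107 ± 11.2 CPM in the GFAP and 76.2 ± 10.3 CPM in the NG2 libraries, without overlap (log2 fold change -0.49, SE 0.11, edgeR adjusted p = 0.122). The Hedgehog effector Gli3, which is needed for the hem and for Emx gene expression, had 88.1 ± 10.6 and 59.9 ± 17.0 CPM (-0.56, SE 0.17, edgeR adjusted p = 0.230). The Wnt effectors Tcf7l2 and Lef1 had log2 fold changes of -0.92 (SE 0.28) and -0.76 (SE 0.24), and Prox1, a homeobox gene of the developing dentate gyrus, of -1.11 (SE 0.35). Higher in the NG2 libraries were Dusp6, a feedback inhibitor of Fgf signalling, at 9.44 ± 2.41 CPM in GFAP and 13.96 ± 1.44 CPM in NG2 libraries (log2 fold change 0.56, SE 0.19, edgeR adjusted p = 0.272), and the Bmp receptor gene Bmpr1b at 13.2 ± 2.65 and 18.5 ± 2.50 CPM (0.49, SE 0.17, edgeR adjusted p = 0.272). The Bmp receptor gene Bmpr1a went the other way, at 59.8 ± 5.72 CPM in GFAP and 46.75 ± 5.87 CPM in NG2 libraries. Its log2 fold change was -0.36 (SE 0.11, edgeR adjusted p = 0.236). The groups did not overlap for Otx1, Tcf7l2, Prox1, Bmpr1a and Dusp6, as for 3.28% of all tested genes (1.76% with NG2 lower). Among the lower genes the edgeR adjusted p was 0.217 for Tcf7l2, 0.241 for Lef1 and 0.240 for Prox1.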
